A study of Mus musculus with 9 samples.

Results

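The inflammatory chemokines Cxcl9, Cxcl10, Ccl2, Ccl3, Ccl4, Ccl5, Ccl7, Ccl8 and Ccl12 and the receptor gene Cxcr3 were followed through the RNA-seq of 9 mouse libraries. These 10 genes were chosen by symbol from 37801 usable entries of the FPKM table (fragments scaled to transcript length and library size), and each symbol stood on 1 entry. There were 3 groups with 3 libraries each. Tyr-NrasQ61K MHCII-KO mice carried the NrasQ61K transgene, expressed from the tyrosinase promoter and so directed to melanocytes, and were labelled Cre-positive with an MHC class II knockout. Tyr-NrasQ61K mice carried the same transgene with wild-type MHC class II and were labelled Cre-negative. Wild-type (WT) mice carried neither change and were given as strain FVB/NJ, whereas both transgenic groups were given as an FVB/NJ cross, so that strain background and transgene cannot be told apart from the labels, although their protocol calls the controls albino littermates without the transgene. The labels name neither the promoter of Cre nor the class II gene that was deleted, the submitters' design text calls the NRAS allele Cre-inducible, and age and sex of the mice are not analysed here. Every library carries its own identifier, yet no label states that each was a different mouse, and the p-values therefore cover the variation among these libraries, which may be technical.

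Nevus melanocytes are named as the source in the labels, whereas the study describes RNA from lymph nodes. The FPKM of 8 B cell markers summed to 642.2 to 2642 and that of 8 T cell markers to 146.2 to 369.6 over all 9 libraries, while 7 melanocyte markers summed to 6.79 to 11.75 in MHCII-KO, 12.5 to 17.01 in Tyr-NrasQ61K and 3.89 to 5.67 in WT libraries. The class II gene H2-Ab1 was at 270.9, 108.2 and 164.6 FPKM in the libraries labelled MHCII-KO, 148.9, 276.4 and 207.3 in Tyr-NrasQ61K and 183.2, 100.7 and 170.1 in WT libraries. These groups overlap, so that the knockout label could not be checked in whole nodes, where many cell types express class II. Sequencing depth was known only relative to WT replicate 1, estimated from steps between low FPKM values, and was 0.757 in Tyr-NrasQ61K replicate 2, 0.873 in MHCII-KO replicate 2 and 1.26 to 1.69 in the other libraries, with a weak estimate for Tyr-NrasQ61K replicate 3. The first principal component, 32.1% of the variance, set Tyr-NrasQ61K replicate 2 (101.9) and MHCII-KO replicate 2 (78.59) apart from the other libraries (-74.14 to 21.77), and the second, 14.6% of the variance, set Tyr-NrasQ61K replicate 3 (-99.95) apart from the others (-12.88 to 35).

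Chemokines are small secreted proteins that bind G protein-coupled receptors on leukocytes and direct their migration. In lymph nodes they draw monocytes, natural killer cells and effector T cells to sites of antigen presentation. Cxcl9 and Cxcl10 bind Cxcr3, which activated CD4 and CD8 T cells and natural killer cells carry, and both are classical interferon-gamma targets. Ccl2, Ccl7 and Ccl12 are monocyte chemoattractants that act through Ccr2, mouse Ccl8 is an agonist of Ccr8, and Ccl3, Ccl4 and Ccl5 attract T cells, natural killer cells and macrophages. The CC genes of the set lie in clusters on chromosome 11, and Cxcl9 and Cxcl10 lie side by side on chromosome 5.

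The sequences upstream of Ccl8, Ccl12, Cxcl9 and Cxcl10 are shown because they pair the 3 genes with the lowest levels in NrasQ61K nodes relative to WT with Cxcl10, the neighbour of Cxcl9. RefSeq windows (GRCm38.p6, the C57BL/6J reference and not the strain of these mice) were found for 6 of the 10 genes, and the 250 bases before the start site were searched on both strands. Capitals mark matches to the core of the interferon-stimulated response element (GAAANNGAA), the TATA box (TATAAA) or the NF-kB consensus, and the search for GAS, the gamma-activated site (TTCNNNGAA), found none in the 6 windows. The windows are chr11:82114935-82115184 (plus strand) for Ccl8, chr11:82101595-82101844 (plus strand) for Ccl12, chr5:92328080-92328329 (minus strand) for Cxcl9 and chr5:92348890-92349139 (minus strand) for Cxcl10, each printed 5′ to 3′ along the gene.
Ccl8: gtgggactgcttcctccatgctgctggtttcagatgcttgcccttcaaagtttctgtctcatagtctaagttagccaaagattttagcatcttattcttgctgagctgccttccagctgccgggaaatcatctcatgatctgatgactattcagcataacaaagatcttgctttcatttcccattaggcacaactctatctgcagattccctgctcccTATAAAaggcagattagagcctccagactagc
Ccl12: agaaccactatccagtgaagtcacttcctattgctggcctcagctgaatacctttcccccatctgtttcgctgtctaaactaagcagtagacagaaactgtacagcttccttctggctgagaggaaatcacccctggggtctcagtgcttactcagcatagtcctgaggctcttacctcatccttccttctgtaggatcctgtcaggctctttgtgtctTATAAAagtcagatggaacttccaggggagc
Cxcl9: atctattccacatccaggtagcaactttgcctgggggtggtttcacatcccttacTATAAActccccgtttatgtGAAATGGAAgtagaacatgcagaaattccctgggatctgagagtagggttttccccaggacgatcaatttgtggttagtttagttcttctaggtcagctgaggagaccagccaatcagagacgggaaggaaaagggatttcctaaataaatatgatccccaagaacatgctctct
Cxcl10: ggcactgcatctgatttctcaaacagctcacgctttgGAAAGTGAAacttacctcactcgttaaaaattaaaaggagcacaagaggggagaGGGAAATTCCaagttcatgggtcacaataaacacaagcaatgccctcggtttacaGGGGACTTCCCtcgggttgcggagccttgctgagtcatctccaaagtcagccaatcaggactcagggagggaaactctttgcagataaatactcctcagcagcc

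Ccl8 and Ccl12 each hold TATAAA close to the start site, from position -32 to -27 in Ccl8 and from -31 to -26 in Ccl12. Cxcl9 holds TATAAA far from the start site, from -195 to -190, and the response element core GAAATGGAA from -175 to -167. Cxcl10 holds the response element core GAAAGTGAA from -213 to -205 and matches to the NF-kB consensus at 2 places, from -159 to -150 and, with overlapping matches on both strands, from -104 to -94. Among the windows not printed, that of Ccl3 also holds the response element core, on the other strand from -39 to -31, and that of Cxcr3 holds no match. Of all 32851 windows of this length, 7.13% hold the response element core, 7.02% GAS, 7.25% the NF-kB consensus and 12.4% TATAAA. These matches describe letters in the reference and were not tested as binding sites.

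**Figure D1:**
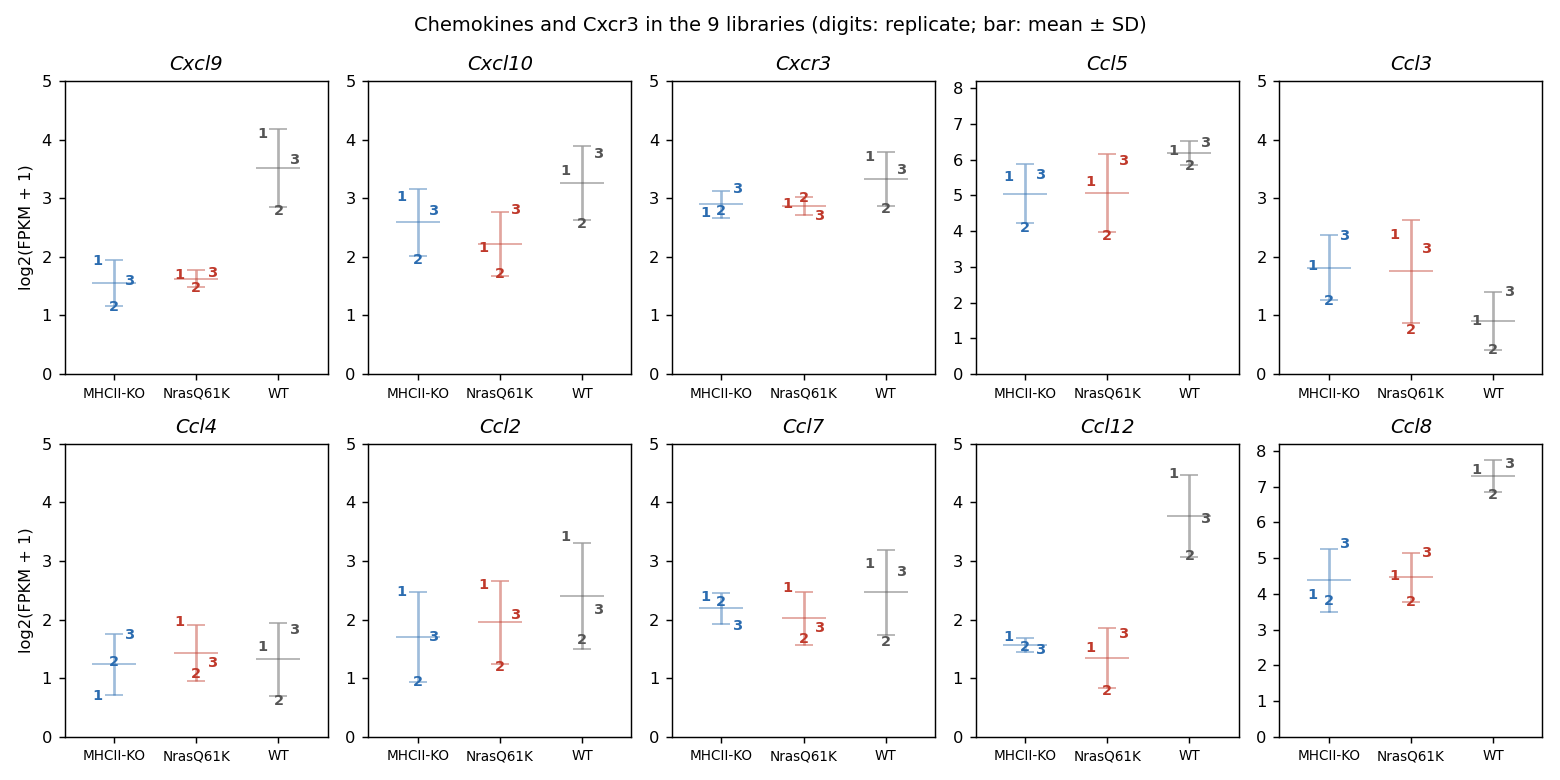
Level of each chemokine gene and of Cxcr3 as log2(FPKM + 1) in Tyr-NrasQ61K MHCII-KO, Tyr-NrasQ61K and WT libraries, each digit being a replicate and each bar the mean ± SD of 3 libraries. The vertical axis runs to 5, and for Ccl5 and Ccl8 to 8.2; all WT libraries sit above all NrasQ61K libraries for Cxcl9, Ccl12 and Ccl8, and at least 1 transgenic group overlaps WT for each of the other genes.

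Ccl8, Ccl12 and Cxcl9 were lower in the nodes of NrasQ61K mice than in WT nodes, in either transgenic group and in all libraries, to between 0.12 and 0.187 of the WT mean. Cxcl10, Ccl5, Cxcr3, Ccl2 and Ccl7 had means below those of WT that did not pass the test, Ccl4 was at like levels, and Ccl3 had the higher means in both transgenic groups. By limma on log2(FPKM + 1), adjusted by Benjamini-Hochberg over all 16587 genes tested and called at an adjusted p of at most 0.05, all 10 genes passed the filter of at least 1 FPKM in at least 3 libraries. When both NrasQ61K groups (6 libraries) were set against WT, 3 of the 10 genes fell, Ccl8, Ccl12 and Cxcl9, against 0.193% of all genes tested, and none rose. Within single groups the test called 0 of the 10 in MHCII-KO against WT, where 0.0663% of all genes were called lower. At an unadjusted p under 0.05, 3 of the 10 were lower there, against 11.5% of all genes. It called 0 of 10 in Tyr-NrasQ61K against WT, where 0.0723% were called lower, and 4 of the 10 were lower at an unadjusted p under 0.05, against 8.43% of all genes. The 2 transgenic groups share the WT controls, so their values against WT are not independent of each other.

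Ccl8, the most abundant of the 10 genes in WT nodes, was at 14.55, 12.8 and 40.76 FPKM in MHCII-KO libraries, 21.5, 12.56 and 34.01 FPKM in Tyr-NrasQ61K libraries and 176.1, 108.7 and 197.9 FPKM in WT libraries. Every NrasQ61K library was below every WT library, and the transgenic groups overlapped each other. The mean was 22.7 ± 15.66 FPKM (SD, n = 3) in MHCII-KO, 22.69 ± 10.77 (SD, n = 3) in Tyr-NrasQ61K and 160.9 ± 46.48 (SD, n = 3) in WT nodes, so that either transgenic mean was 0.141 of the WT mean. The log2 fold change of FPKM + 1 was -2.88 ± 0.45 (SE) for both NrasQ61K groups against WT (adjusted p = 0.0432 from limma), and 6 of 6 NrasQ61K libraries were lower. It was -2.92 ± 0.52 for MHCII-KO (adjusted p = 0.132) and -2.83 ± 0.52 for Tyr-NrasQ61K (adjusted p = 0.102), each against WT. Ccl8 (ENSMUSG00000009185, mm10 chromosome 11 from 82115185 to 82116799, plus strand) encodes monocyte chemoattractant protein 2.

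Ccl12, known from mice as monocyte chemoattractant protein 5, lies 11.8 kb before Ccl8 on the same strand (ENSMUSG00000035352, chromosome 11 from 82101845 to 82103400). It was at 2.27, 1.9 and 1.78 FPKM in MHCII-KO libraries, 1.86, 0.713 and 2.36 FPKM in Tyr-NrasQ61K libraries and 21.42, 7.52 and 12.16 FPKM in WT libraries. The lowest WT library was still above the highest NrasQ61K library. The mean was 1.98 ± 0.25 FPKM in MHCII-KO, 1.65 ± 0.84 in Tyr-NrasQ61K and 13.7 ± 7.08 in WT nodes (SD, n = 3 each), that is 0.145 and 0.12 of the WT mean in MHCII-KO and in Tyr-NrasQ61K. For Ccl12 the log2 fold change was -2.31 ± 0.32 for both groups against WT (adjusted p = 0.0293 from limma), -2.19 ± 0.37 for MHCII-KO (adjusted p = 0.113) and -2.42 ± 0.37 for Tyr-NrasQ61K (adjusted p = 0.0585). The ratio of Ccl8 to Ccl12 within a library overlapped between all groups, at 6.42, 6.74 and 22.9 in MHCII-KO, 11.5, 17.6 and 14.4 in Tyr-NrasQ61K and 8.22, 14.5 and 16.3 in WT libraries.

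Cxcl9, a Cxcr3 ligand made by macrophages and dendritic cells under interferon-gamma, was at 2.82, 1.2 and 2.01 FPKM in MHCII-KO libraries, 2.23, 1.76 and 2.32 FPKM in Tyr-NrasQ61K libraries and 16.18, 5.9 and 11.63 FPKM in WT libraries. Both transgenic groups again lay below all WT libraries. The mean was 2.01 ± 0.81 FPKM in MHCII-KO, 2.1 ± 0.3 in Tyr-NrasQ61K and 11.23 ± 5.15 in WT nodes (SD, n = 3 each). Its log2 fold change was -1.92 ± 0.3 for both NrasQ61K groups against WT (adjusted p = 0.0424 from limma), -1.96 ± 0.34 for MHCII-KO (adjusted p = 0.124) and -1.89 ± 0.34 for Tyr-NrasQ61K (adjusted p = 0.102). Cxcl9 (ENSMUSG00000029417) lies on chromosome 5 from 92321347 to 92328079 on the minus strand.

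These 3 calls depend on which libraries enter the fit. Without both libraries that stood apart on the first component, none of the 3 was called for both NrasQ61K groups against WT, at log2 fold changes of -2.55 for Ccl8 (adjusted p = 0.119), -2.15 for Ccl12 (adjusted p = 0.0923) and -1.78 for Cxcl9 (adjusted p = 0.131). Leaving out 1 library at a time, Ccl12 stayed called without Tyr-NrasQ61K replicate 2 or 3 or WT replicate 2, Cxcl9 only without WT replicate 2 and Ccl8 only without MHCII-KO replicate 3. The adjusted p otherwise reached up to 0.143 for Ccl12, 0.235 for Cxcl9 and 0.242 for Ccl8, the highest values being those without WT replicate 3. The direction was the same in every such fit, with log2 fold changes of -2.64 to -1.94 for Ccl12, -2.29 to -1.63 for Cxcl9 and -3.13 to -2.7 for Ccl8. No overlap with WT was seen for 3 of the 10 genes in both NrasQ61K groups together, where 8.44% of all genes tested lay below WT without overlap, for the same 3 in Tyr-NrasQ61K alone (10.5% of all genes) and for these and Ccl5 in MHCII-KO alone (23.4% of all genes).

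Cxcl10, the other Cxcr3 ligand, stands next to Cxcl9 (ENSMUSG00000034855, chromosome 5 from 92346638 to 92348889, minus strand). It was at 7.16, 2.86 and 5.92 FPKM in MHCII-KO libraries, 3.45, 2.26 and 5.98 FPKM in Tyr-NrasQ61K libraries and 9.99, 4.89 and 12.57 FPKM in WT libraries. WT replicate 2 lay inside the range of both transgenic groups. Its log2 fold change was -0.67 for MHCII-KO (95% interval -1.64 to 0.3, adjusted p = 0.402 from limma) and -1.04 for Tyr-NrasQ61K (95% interval -2.01 to -0.07, adjusted p = 0.321), each against WT.

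Because a ratio of 2 genes within a library does not depend on how the library was scaled, neighbours of the set were also divided by each other, on pairs chosen after their values were seen and without a test. The ratio of Cxcl9 to Cxcl10 was 0.394, 0.42 and 0.339 in MHCII-KO libraries, 0.646, 0.778 and 0.388 in Tyr-NrasQ61K libraries and 1.62, 1.21 and 0.925 in WT libraries. All NrasQ61K libraries thus held less Cxcl9 relative to Cxcl10 than any WT library. The ratio of Ccl8 to Ccl7 was 3.46, 3.26 and 15 in MHCII-KO, 4.48, 5.81 and 12.9 in Tyr-NrasQ61K and 26.1, 52.2 and 32.9 in WT libraries, and that of Ccl12 to Ccl2 was 0.499, 2.07 and 0.787 in MHCII-KO, 0.373, 0.559 and 0.729 in Tyr-NrasQ61K and 2.22, 3.53 and 3.51 in WT libraries. Neither ratio overlapped between the NrasQ61K and the WT libraries, although MHCII-KO replicate 2 came close for Ccl12 to Ccl2. The numerators Cxcl9, Ccl8 and Ccl12 already lay below WT without overlap, so these ratios do not add a separate result. The ratio of Ccl3 to Ccl4, at 4.15, 0.973 and 1.75 in MHCII-KO, 1.44, 0.625 and 2.44 in Tyr-NrasQ61K and 0.46, 0.621 and 0.653 in WT libraries, did overlap, through Tyr-NrasQ61K replicate 2.

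**Figure D2:**
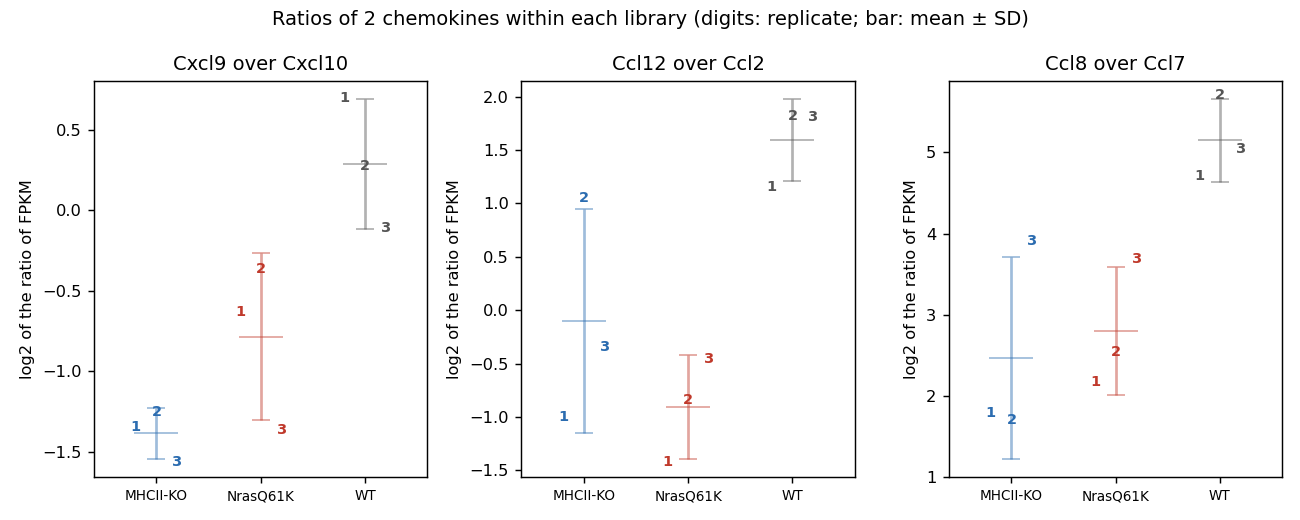
Log2 of the ratio of FPKM of Cxcl9 to Cxcl10, Ccl12 to Ccl2 and Ccl8 to Ccl7 within each library, with MHCII-KO, Tyr-NrasQ61K and WT libraries from left to right, digits for replicates and bars for the mean ± SD of 3 libraries. The WT libraries lie above all NrasQ61K libraries in each panel, narrowly so for Ccl12 to Ccl2.

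Cxcr3 itself had smaller fold changes than its ligand Cxcl9. The receptor (ENSMUSG00000050232, X chromosome from 101731535 to 101734269, minus strand) was at 5.75, 5.88 and 7.97 FPKM in MHCII-KO libraries, 6.5, 6.98 and 5.49 FPKM in Tyr-NrasQ61K libraries and 12.01, 6.05 and 10.14 FPKM in WT libraries. WT replicate 2 sat among the transgenic libraries. Against WT, the log2 fold change was -0.43 for MHCII-KO (95% interval -1.02 to 0.15, adjusted p = 0.383 from limma) and -0.47 for Tyr-NrasQ61K (95% interval -1.05 to 0.12, adjusted p = 0.37). No test of the difference between Cxcr3 and Cxcl9 was run. Since these are bulk libraries, fewer cells of a type and less RNA per cell cannot be told apart for any of the genes.

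Ccl5, which T cells and natural killer cells make, was the most abundant of the 10 genes in both transgenic groups and came after Ccl8 in WT. It was at 44.57, 16.02 and 46.16 FPKM in MHCII-KO libraries, 40.61, 13.51 and 61.24 FPKM in Tyr-NrasQ61K libraries and 74.53, 55.67 and 88.17 FPKM in WT libraries. The MHCII-KO libraries all lay below WT, while Tyr-NrasQ61K replicate 3 lay inside the WT range. Ccl5 had a log2 fold change of -1.13 for MHCII-KO (adjusted p = 0.35 from limma) and -1.11 for Tyr-NrasQ61K (adjusted p = 0.36). Ccl5 (ENSMUSG00000035042) spans 83525778 to 83530518 of chromosome 11 on the minus strand.

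Ccl3, a chemokine made by activated macrophages and lymphocytes, was the only gene of the set with log2 fold changes above 0.5 (ENSMUSG00000000982, chromosome 11 from 83647844 to 83649355, minus strand). It was at 2.61, 1.38 and 4.1 FPKM in MHCII-KO libraries, 4.18, 0.685 and 3.37 FPKM in Tyr-NrasQ61K libraries and 0.869, 0.33 and 1.64 FPKM in WT libraries. The means were 2.85 and 2.9 times the WT mean in MHCII-KO and in Tyr-NrasQ61K nodes, yet replicate 2 of each transgenic group lay inside the WT range. Ccl3 had a log2 fold change of 0.91 for MHCII-KO (adjusted p = 0.35 from limma) and 0.85 for Tyr-NrasQ61K (adjusted p = 0.377). Ccl4 (ENSMUSG00000018930, 83662584 to 83664683, plus strand), its neighbour 13.2 kb away, was at 0.629, 1.42 and 2.35 FPKM in MHCII-KO libraries, 2.9, 1.1 and 1.38 in Tyr-NrasQ61K libraries and 1.89, 0.531 and 2.52 in WT libraries. Its log2 fold change of -0.08 in MHCII-KO against WT became 0.12 under median-ratio scaling and 0.04 under quantile normalization, and that of 0.11 in Tyr-NrasQ61K had a 95% interval of -0.8 to 1.02.

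Ccl2 (ENSMUSG00000035385, chromosome 11 from 82035571 to 82037453) and Ccl7 (ENSMUSG00000035373, 82045712 to 82047525), both on the plus strand and coding for Ccr2 ligands, stand at the start of the same cluster as Ccl12 and Ccl8. Ccl2 was at 4.54, 0.916 and 2.26 FPKM in MHCII-KO libraries, 5, 1.27 and 3.24 FPKM in Tyr-NrasQ61K libraries and 9.65, 2.13 and 3.46 FPKM in WT libraries, so that the lowest and the highest library of a group differed by 3.92 to 4.96 times. Its log2 fold change against WT was -0.7 for MHCII-KO (95% interval -2 to 0.6) and -0.46 for Tyr-NrasQ61K (95% interval -1.75 to 0.84). Ccl7 was at 4.2, 3.92 and 2.72 FPKM in MHCII-KO libraries, 4.8, 2.16 and 2.64 FPKM in Tyr-NrasQ61K libraries and 6.75, 2.08 and 6.01 FPKM in WT libraries, with log2 fold changes of -0.27 and -0.44 in MHCII-KO and in Tyr-NrasQ61K nodes. Both genes overlapped between all groups.

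**Figure D3:**
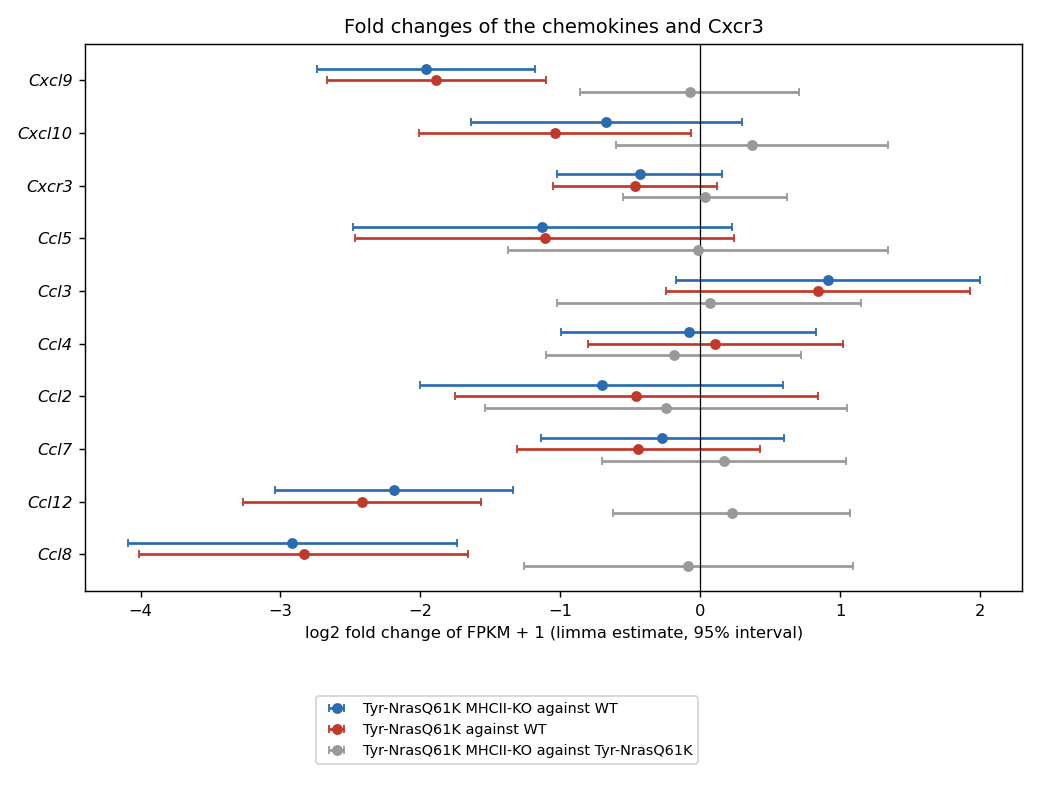
Log2 fold change of FPKM + 1 with its 95% interval for each gene, with MHCII-KO set against WT, Tyr-NrasQ61K set against WT and MHCII-KO set against Tyr-NrasQ61K. The intervals against WT leave out 0 for Cxcl9, Ccl12 and Ccl8 in both comparisons and for Cxcl10 in Tyr-NrasQ61K, and all intervals between the transgenic groups include 0.

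The median log2 fold change of the 10 genes against WT was -0.69 in MHCII-KO and -0.75 in Tyr-NrasQ61K nodes, beside -0.22 and -0.12 over all genes tested. Of the 10 genes, 9 were below 0 in MHCII-KO and 8 in Tyr-NrasQ61K. Relative to the median of all genes the log2 fold change in MHCII-KO and in Tyr-NrasQ61K nodes was -2.7 and -2.71 for Ccl8, -1.97 and -2.3 for Ccl12, -1.74 and -1.77 for Cxcl9 and 1.13 and 0.97 for Ccl3. Scaling the libraries by the median of ratios moved the median of all genes to 0.02 in MHCII-KO and 0.03 in Tyr-NrasQ61K. With that scaling the log2 fold changes of Ccl8 were -2.63 (adjusted p = 0.0551 from limma) and -2.64 (adjusted p = 0.0441).

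No difference between the transgenic groups passed the test for any of the 10 genes, while 0.0482% of all genes were called. At an unadjusted p under 0.05 there were 0 of the 10, against 0.235% of all genes higher and 1.28% lower. The log2 fold change of MHCII-KO against Tyr-NrasQ61K ran from -0.25 for Ccl2 to 0.37 for Cxcl10. For the genes that fell in NrasQ61K nodes, the 95% interval of this difference was -1.26 to 1.09 for Ccl8, -0.63 to 1.07 for Ccl12 and -0.86 to 0.71 for Cxcl9. These intervals hold differences of either sign.

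Order within the set differed between groups in its leading genes. In MHCII-KO nodes Ccl5 made up 42.1% and Ccl8 26.9% of the summed mean FPKM of the 10 genes, in Tyr-NrasQ61K nodes Ccl5 made up 44.7% and Ccl8 26.4%, and in WT nodes Ccl8 made up 55.5% and Ccl5 25.1%. Ccl12 had rank 9 in MHCII-KO, 10 in Tyr-NrasQ61K and 3 in WT nodes, and Cxcl9 had rank 8, 8 and 4. In WT nodes Ccl12 (13.7 ± 7.08 FPKM), Cxcl9 (11.23 ± 5.15), Cxcr3 (9.4 ± 3.05) and Cxcl10 (9.15 ± 3.91, SD, n = 3 each) each differed from the next in this order by less than the SD of either gene. Replicate 2 held the lowest value of its group for 6 of the 10 genes in MHCII-KO, 9 in Tyr-NrasQ61K and 10 in WT. The summed FPKM of the 10 genes was 89.11, 48.29 and 116 in MHCII-KO, 93.05, 43.01 and 122 in Tyr-NrasQ61K and 329.4, 193.8 and 346.2 in WT libraries.

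Along chromosome 11 the fold changes varied within the cluster. In the first cluster the order is Ccl2, Ccl7, Ccl11, Ccl12, Ccl8 and Ccl1, and the log2 fold changes in MHCII-KO and in Tyr-NrasQ61K nodes against WT were nearer 0 for Ccl2 and Ccl7 than for Ccl12 and Ccl8. Ccl11, the eosinophil chemoattractant eotaxin, stood between them at -1.28 in MHCII-KO and -0.91 in Tyr-NrasQ61K, where neither passed the test, and Ccl1 was below the filter. In the second cluster, Ccl9 (-0.71 in MHCII-KO and -0.16 in Tyr-NrasQ61K) and Ccl6 (0.2 and -0.08) lie between Ccl5 and Ccl3. No stretch of 30 bases of one of the 10 genes' transcripts occurs in another, so that reads of this length would not be split between them, while 4.52% of such stretches of Cxcl10 are shared with 1 other gene, the overlapping Art3, and 0.861% of those of Ccl5 and 0.574% of those of Cxcl9 are shared with other genes.

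**Figure D4:**
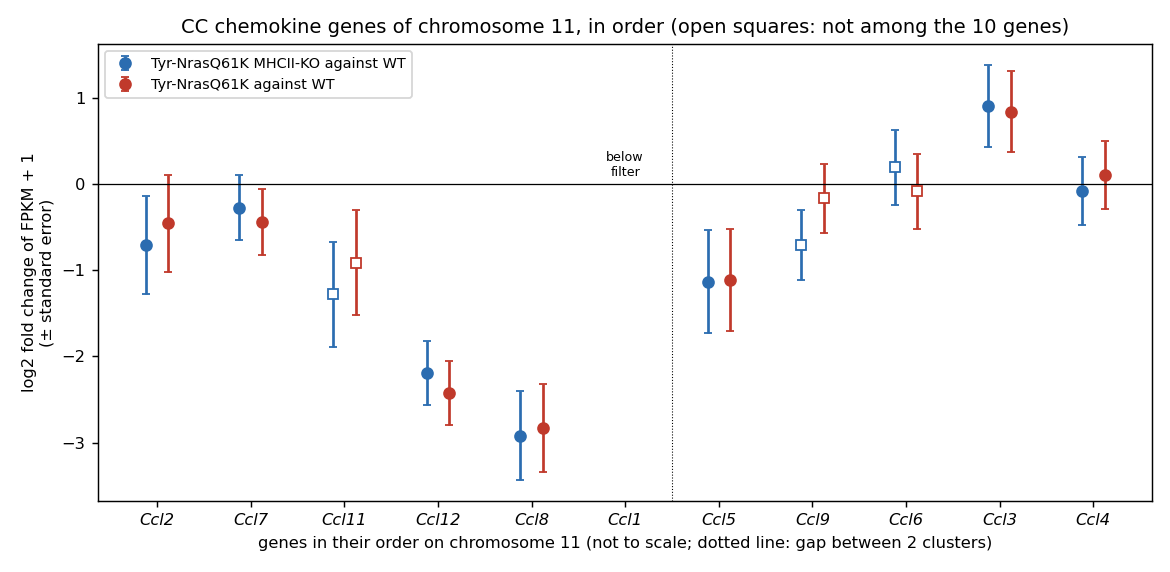
Log2 fold change of FPKM + 1 with its standard error against WT for the CC chemokine genes of chromosome 11 in their order along it, in Tyr-NrasQ61K MHCII-KO (left of each pair) and Tyr-NrasQ61K (right of each pair). Ccl12 and Ccl8, neighbours near the end of the first cluster, are the lowest, Ccl3 is the only gene above 0.5, and Ccl1 was below the filter.

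None of the other genes of the pathway, drawn from 4 lists, passed the test against WT in either group or in both together. Of 14 other inflammatory chemokines, 6 were tested, with medians of -0.69 in MHCII-KO and -0.44 in Tyr-NrasQ61K, and 1 was lower at an unadjusted p under 0.05 in each comparison, against 11.5% of all genes in MHCII-KO and 8.43% in Tyr-NrasQ61K. This was Xcl1, a chemokine of natural killer and CD8 T cells, at 3.06 ± 1.55 FPKM in MHCII-KO, 2.82 ± 0.93 in Tyr-NrasQ61K and 8.05 ± 3.91 in WT nodes (SD, n = 3 each). Cxcl16, the ligand of Cxcr6, was at 16.32 ± 5.23, 16.72 ± 7.03 and 26.8 ± 8.74 FPKM in MHCII-KO, Tyr-NrasQ61K and WT nodes (SD, n = 3 each).

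The receptor list held 7 tested genes, of which Ccr8 passed the filter only through its WT libraries, so that its values are given without a test. Of the others, Cxcr6 and Cx3cr1 were lower at an unadjusted p under 0.05 in each transgenic group against WT. The share of all genes was the same 11.5% in MHCII-KO and 8.43% in Tyr-NrasQ61K. Ccr8, the receptor of mouse Ccl8, was at 0.885, 0.611 and 0.697 FPKM in MHCII-KO libraries, 0.623, 0.424 and 0.332 FPKM in Tyr-NrasQ61K libraries and 1.6, 1.48 and 1.88 FPKM in WT libraries. Cx3cr1, the fractalkine receptor, was below WT in all NrasQ61K libraries, with log2 fold changes of -0.6 in MHCII-KO (adjusted p = 0.329) and -0.75 in Tyr-NrasQ61K (adjusted p = 0.222). Ccr2, the monocyte receptor of Ccl2, Ccl7 and Ccl12, had log2 fold changes of -1.1 in MHCII-KO (adjusted p = 0.335) and -1.17 in Tyr-NrasQ61K (adjusted p = 0.33).

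The interferon-gamma list, for the pathway that induces Cxcl9 and Cxcl10, had 10 tested genes, with medians of -0.55 in MHCII-KO and -0.33 in Tyr-NrasQ61K. Of these, 9 were below 0 in each group, while Tbx21 was at 0.18 in MHCII-KO and 0.03 in Tyr-NrasQ61K. At an unadjusted p under 0.05 from limma, 3 of the 10 were lower in MHCII-KO and 2 in Tyr-NrasQ61K. The shares of all genes were 11.5% in MHCII-KO and 8.43% in Tyr-NrasQ61K. Transcript levels of this list do not measure interferon-gamma signalling itself. Ifng itself was below the filter, at 0.153, 0.349 and 0.181 FPKM in MHCII-KO libraries, 0.297, 0.135 and 0.236 FPKM in Tyr-NrasQ61K libraries and 0.913, 0.513 and 0.446 FPKM in WT libraries. All NrasQ61K libraries were below all WT libraries for Ifng. Jak2, a kinase of the interferon-gamma receptor, had log2 fold changes of -0.92 in MHCII-KO and -0.85 in Tyr-NrasQ61K, and Irf1, a transcription factor induced by interferon-gamma, had -0.61 in MHCII-KO and -0.55 in Tyr-NrasQ61K.

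The NF-kB list, for the pathway that drives Ccl2, Ccl3 and Cxcl10 after tumor necrosis factor or interleukin 1, had 10 tested genes and medians of -0.31 in MHCII-KO and -0.32 in Tyr-NrasQ61K. Tnf was at 2.4, 2.45 and 3.12 FPKM in MHCII-KO libraries, 2.28, 2.29 and 2.92 FPKM in Tyr-NrasQ61K libraries and 6.33, 3.55 and 3.53 FPKM in WT libraries. All NrasQ61K libraries lay below WT, and Tnf did not pass the test (adjusted p = 0.329 in MHCII-KO and 0.31 in Tyr-NrasQ61K from limma). Tnf was the only 1 of the 10 with an unadjusted p under 0.05 in either group. Of all genes, 11.5% were lower at that threshold in MHCII-KO and 8.43% in Tyr-NrasQ61K. In the list, 9 of 10 were below 0 in MHCII-KO and 7 in Tyr-NrasQ61K, with Rela at 0.18 in both. Il1b was at 3.25 ± 1.46 FPKM in MHCII-KO, 1.9 ± 1.62 in Tyr-NrasQ61K and 3.71 ± 1.27 in WT nodes (SD, n = 3 each), with overlap.

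Markers of cells that can make or carry these genes were measured beside them, and of the macrophage, dendritic cell, monocyte, T cell and natural killer cell lists none was called against WT. Of 10 macrophage markers, 8 were tested and 4 were lower with an unadjusted p under 0.05 in Tyr-NrasQ61K against WT, where 8.43% of all genes were, namely the scavenger receptor gene Marco (-2.1), Timd4 (-3.23), Mrc1 (-1.62) and Csf1r (-0.88). Others went the other way, with Cd68 at 0.42 in Tyr-NrasQ61K and 0.32 in MHCII-KO, C1qb at 0.2 in MHCII-KO and Siglec1 at 2.17 and 2.18 in Tyr-NrasQ61K and MHCII-KO. Marco was at 23.62, 13.94 and 40.03 FPKM in MHCII-KO, 22.9, 19.57 and 24.16 in Tyr-NrasQ61K and 129.7, 51.75 and 141.8 in WT libraries, all NrasQ61K libraries being below WT. The list summed to 212.4 to 343.7 FPKM in MHCII-KO, 194.7 to 291.5 in Tyr-NrasQ61K and 241.9 to 596.3 in WT libraries, with overlap, and Siglec1 was listed at 0 in WT replicates 2 and 3. Dendritic cell markers (8 genes) summed to 62.51 to 93.81, 54.98 to 122.1 and 122.3 to 182.5 FPKM in MHCII-KO, Tyr-NrasQ61K and WT libraries. All 8 had log2 fold changes below 0 in each group, with medians of -0.79 in MHCII-KO and -0.83 in Tyr-NrasQ61K. At an unadjusted p under 0.05, 4 of the 8 were lower in each, against 11.5% of all genes in MHCII-KO and 8.43% in Tyr-NrasQ61K. Monocyte markers (6 genes, Ccr2 among them) summed to 82.27 to 150.6, 82.27 to 137 and 108.4 to 230.4 FPKM in the same order of groups, with overlap.

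T cell markers (8 genes), of cells that carry Cxcr3 and make Ccl5, summed to 146.2 to 246 FPKM in MHCII-KO, 159.3 to 369.6 in Tyr-NrasQ61K and 182.2 to 300.4 in WT libraries, with overlap. Their median log2 fold change against WT was -0.33 in MHCII-KO and -0.41 in Tyr-NrasQ61K, and 6 of the 8 were below 0 in each group. The lowest, in MHCII-KO and in Tyr-NrasQ61K, was Cd3g at -1.85 and -1.71, and Cd3d was at -0.74 and -0.88. Cd4 at 0.82 and 1.08 and Cd3e at 0.3 and 0.28 went the other way. Natural killer and effector cell markers (9 genes) summed to 36.06 to 46.67, 30.35 to 48.56 and 41.13 to 66.23 FPKM in MHCII-KO, Tyr-NrasQ61K and WT libraries, with medians of -0.28 in MHCII-KO and -0.53 in Tyr-NrasQ61K.

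The summed adipocyte markers were lower in all NrasQ61K libraries than in any WT library. Lep, the leptin gene, passed the filter only through its WT libraries, and its test is not used. Adipoq, Plin1, Cidec and Fabp4 were lower with an unadjusted p under 0.05 in Tyr-NrasQ61K against WT, where 8.43% of all genes were. The 5 markers, Lep included, summed to 43.19 to 118 FPKM in MHCII-KO, 24.66 to 147 in Tyr-NrasQ61K and 205.3 to 355.7 in WT libraries. Plin1, which coats fat droplets, was called for both NrasQ61K groups against WT (adjusted p = 0.0445 from limma). The part of macrophages, dendritic cells, monocytes, T cells, natural killer cells and adipocytes in the lower Ccl8, Ccl12 and Cxcl9 was not tested.

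**Figure D5:**
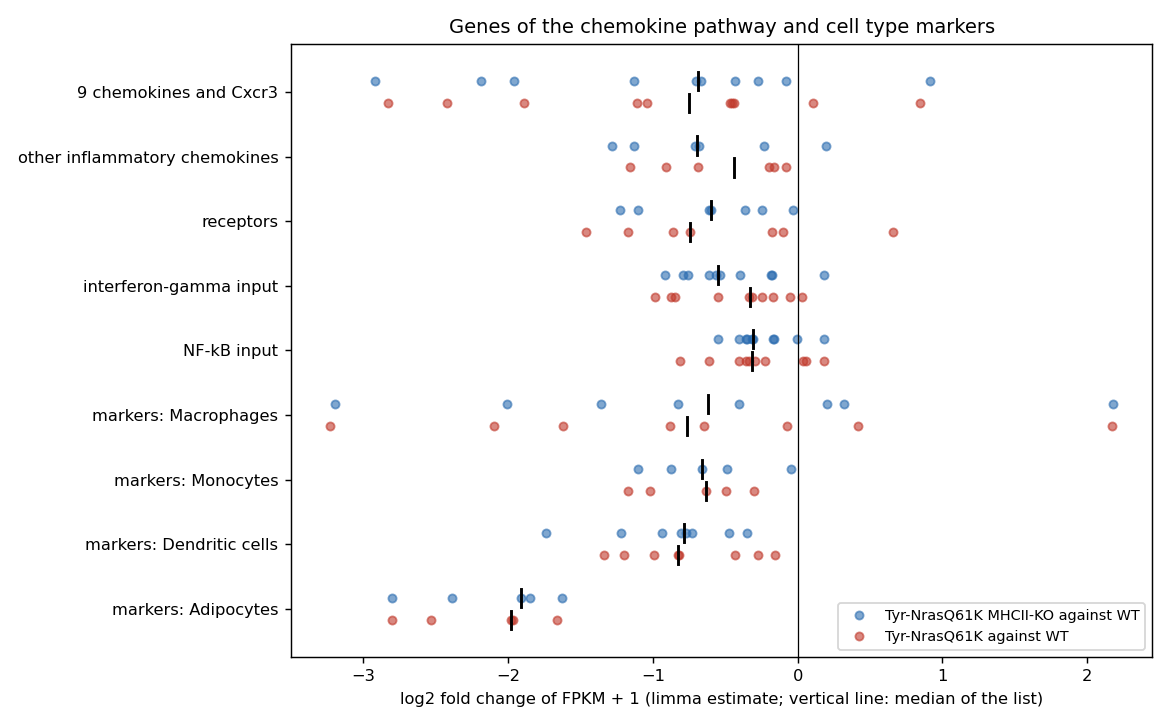
Log2 fold change of FPKM + 1 against WT of each tested gene of the set, of the other pathway lists and of 4 marker lists, for Tyr-NrasQ61K MHCII-KO (upper row of each pair) and Tyr-NrasQ61K (lower row), with a vertical line at the median of the list. The 5 adipocyte markers, Lep included, lie furthest left as a list. Lep and Ccr8, which passed the filter only through WT libraries, are drawn and enter the medians of their lists. Ccl8, Ccl12 and Cxcl9 are the 3 lowest points of the top rows, and the macrophage point near 2.2 is Siglec1, which is listed at 0 in WT replicates 2 and 3.

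The genes nearest in profile were found by the mean absolute difference of centred log2(FPKM + 1) over the 9 libraries, among 12592 genes. The nearest to Ccl8 were Cd209d, a C-type lectin gene of the DC-SIGN family, at 0.36, the small nucleolar RNA SNORA35 at 0.36 and the complement gene C6 at 0.41, against a mean absolute deviation of Ccl8 from its own mean of 1.28. Those nearest to Ccl12 were Npr3 (0.22), a clearance receptor of natriuretic peptides, Tpsb2 (0.26), a mast cell tryptase, and Bpifb2 (0.26). Cxcl9 was nearest to Bpifb2 (0.2), Npr3 (0.2) and Gbp2 (0.21), an interferon-induced guanylate-binding protein, so that Npr3 and Bpifb2 were common to Ccl12 and Cxcl9. Ccl3 was nearest to the lysosomal lipase gene Lipa (0.16), the iron exporter gene Slc40a1 (0.17) and C3ar1 (0.17), the receptor of complement C3a. Ccl5 was nearest to Rpl10-ps1 (0.1), Il7r (0.12), the interleukin 7 receptor of lymphocytes, and Rps27 (0.12), and Cxcl10 to Upp1, Supt4h1 and Slfn2 (0.12 to 0.14).

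Cxcr3, with a mean absolute deviation of 0.28, was nearest to Srp9 (0.05), Cd2bp2 (0.06) and Serinc5 (0.07). Ccl2 was nearest to the fibroblast growth factor gene Fgf7 (0.19), to Efemp1 (0.25) and to Pdcl (0.26), Ccl7 to Adm (0.13), Fos (0.14) and C1qc (0.15), and Ccl4 to Emilin2 (0.18) and Ptgr1 (0.2). These distances share the libraries and their scaling, and carry no test.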

How the data were processed

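RNA of 9 mouse libraries, 3 per group, shared 1 flow cell (Genome Analyzer IIx). The FPKM values were deposited by the authors as 1 table, and the submitters' processing notes name TopHat, Cufflinks, Cuffdiff and mm10. The sources used here do not give versions, annotation or read filters, and FPKM hold no read counts, so no counting interval was given. Of 37819 entries, 18 with several values per library were left out.

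Genes with at least 1 FPKM in at least 3 libraries (16587) were fitted as log2(FPKM + 1) with limma 3.58.1 (R 4.3.3), group means and a mean-variance trend, adjusted by Benjamini-Hochberg, and called at an adjusted p of at most 0.05. The pseudocount of 1 makes fold changes of low genes smaller than their FPKM ratio. Coordinates came from GENCODE M21 and promoter windows from RefSeq. Python 3.11.15 and matplotlib 3.10.9 drew the plots. The fit was also run on simulated data with independent noise and no outlying libraries, which cannot show how far the calls depend on single libraries.

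The genes, lists and comparisons were chosen with earlier results of these data known. Named were all 10 genes, Ifng, Irf1, Tnf, Il1b and Ccr2, up to 2 genes per pathway list with the smallest unadjusted p in Tyr-NrasQ61K against WT, and the 3 nearest genes of each member, and some genes that these rules name are not reported here. Other list and marker genes, and the ratios, were named after their values were seen. In total 19 alternatives were run, among them other scalings, filters, pseudocounts and leaving out each of the 9 libraries.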

Additional observations from a re-analysis of the deposited data

How the results depend on the processing

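The fold changes of Ccl8, Ccl12, Cxcl9, Cxcl10, Ccl5, Ccl7 and Cxcr3 were below 0, and that of Ccl3 above 0, in every alternative that set either NrasQ61K group or both against WT, but the calls were not stable.

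For both NrasQ61K groups against WT, 3 of the 10 genes were called, as they were with median-ratio scaling, quantile normalization and protein-coding genes only. The number was 1 with a pseudocount of 0.1, 0 without a filter on low values, 0 without the 2 libraries that stood apart on the first component, 0 with a term for the runs of library identifiers, 8 with weights for the libraries, and 0 to 2 when 1 library was left out. For Tyr-NrasQ61K against WT, 0 were called, against 3 with median-ratio scaling, 2 with quantile normalization, 7 with weights, 3 with protein-coding genes only, and 0 to 1 when 1 library was left out. For Tyr-NrasQ61K MHCII-KO against WT, 0 were called, against 1 with quantile normalization, 8 with weights and 3 with protein-coding genes only. The weights ranged from 0.197 (Tyr-NrasQ61K replicate 2) to 5.22 (MHCII-KO replicate 3), and that fit called 5076 genes for Tyr-NrasQ61K and 7407 for MHCII-KO against WT. Over all genes, 39 (27 higher and 12 lower) were called for Tyr-NrasQ61K, 24 (13 and 11) for MHCII-KO and 66 (34 and 32) for both against WT, beside 66 (43 and 23), 37 (23 and 14) and 164 (87 and 77) with median-ratio scaling, 47 (26 and 21), 36 (18 and 18) and 173 (71 and 102) with quantile normalization, and 105 (36 and 69), 108 (35 and 73) and 273 (76 and 197) of 11902 protein-coding genes. The cause was not tested. No WT library shares an identifier run with a transgenic one, so that run and WT cannot be told apart and the term compares runs within the transgenic groups only. The 2 libraries that stood apart were also the shallowest, and the reads behind the low values of Ccl3, Ccl4 and Ccl12 there are unknown.

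With replicate number as a replicate block, 4 of the 10 genes were called for Tyr-NrasQ61K against WT, 3 for MHCII-KO against WT and 7 for both against WT. The correlation of same-numbered libraries ran from -0.0384 to 0.332, and that of differently numbered libraries from -0.27 to 0.162. The labels do not say that the numbers pair libraries, and whether same-numbered libraries share a source of variation was not tested. All genes called rose to 894, 777 and 2675 with the block, against 39, 24 and 66 without it.

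Between MHCII-KO and Tyr-NrasQ61K, 0 of the 10 genes were called in any fit, and log2 fold changes turned sign. Ccl5 became 0.0821 with median-ratio scaling, 0.187 with quantile normalization, 0.104 with weights and 0.0352 with the term for identifier runs, and Ccl8 became 0.00849, 0.0953, 0.554 and 0.16. Cxcl9 became 0.0216 with quantile normalization, Ccl3 -0.0883 with weights, and Ccl7 -0.458 with weights and -0.0319 with the identifier term. Without the 2 libraries that stood apart, Cxcl9 became 0.0508, Ccl3 -0.148, Ccl7 -0.0626 and Ccl12 -0.0429. When 1 library was left out, the difference ran from -0.265 to 0.133 for Cxcl9, -0.63 to 0.136 for Ccl2, -0.432 to 0.379 for Ccl3, -0.439 to 0.0805 for Ccl4, -0.617 to 0.469 for Ccl5, -0.00886 to 0.429 for Ccl7, -0.588 to 0.25 for Ccl8, -0.0611 to 0.425 for Ccl12 and -0.0991 to 0.106 for Cxcr3. Against WT, Ccl4 became 0.116 with median-ratio scaling and 0.0431 with quantile normalization in MHCII-KO, and with 1 library left out it ran from -0.432 to 0.188 in MHCII-KO, -0.244 to 0.355 in Tyr-NrasQ61K and -0.338 to 0.261 in both, while Ccl2 ran from -0.834 to 0.0484 in Tyr-NrasQ61K.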
